A study of Mus musculus with 11 samples.

Results

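The genes of the kynurenine pathway and of NAD synthesis were examined in mPFC CRF1+ neurons of naïve and withdrawn mice. The set held 10 of the 53465 genes in the count tables: Qprt, Kmo, Kynu, Haao, Kyat3, Aadat, Nampt, Nmnat2, Nadk2 and Naprt. Qprt was chosen because its counts were higher in the ethanol mice, so its values are given as a description with no test. The other 9 genes were added as its neighbours in metabolism, with earlier results of these data known. RNA was sequenced from GFP+ cells sorted from the medial prefrontal cortex (mPFC) of single adult male CRF1:GFP mice over 10 weeks of age, in which GFP reports the corticotropin releasing factor receptor CRF1. The 6 naïve mice breathed air and received the alcohol dehydrogenase inhibitor pyrazole. The 5 withdrawn mice received pyrazole and ethanol injections and breathed ethanol vapor intermittently over 5 to 6 weeks, followed by 5 to 8 days of forced abstinence. Groups follow the title and treatment of each sample. For withdrawn mice 3, 4 and 5 another label reads control, and the series' design text swaps the sizes of the groups. Values without these 3 mice are therefore given too.

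Most tryptophan that is not used for protein is broken down through kynurenine. In the brain, kynurenine is turned either into kynurenic acid, which blocks glutamate receptors and is made mainly in astrocytes, or into quinolinic acid, an agonist of NMDA receptors that is made mainly by microglia and other myeloid cells. Quinolinate phosphoribosyltransferase, encoded by Qprt, takes quinolinic acid into NAD synthesis, where it joins the salvage of nicotinamide and nicotinic acid through Nampt and Naprt.

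Each library came from a single mouse, and n is the number of mice. Counts on genes ranged from 7351567 to 22244869, and 3 counts correspond to 0.140 to 0.369 CPM (counts scaled to a common, normalized library size). That floor covers counting error only, since reads from amplified cDNA are not independent molecules. Naïve mouse 5 had the fewest genes with a count (15585), and withdrawn mice 2 and 4 had the largest shares of reads outside exons (39.6% and 48.1%). The 5 markers of glutamatergic neurons summed to 2435 ± 457 CPM in naïve mice (SD, n = 6) and to 2202 ± 615 CPM in withdrawn mice (SD, n = 5), and Crhr1, the gene of CRF1, was at 92.7 ± 21.5 and 89.3 ± 33.6 CPM. Other cell types varied widely within both groups. The 5 GABAergic neuron markers summed to 54.8 to 251 CPM in naïve and 21.0 to 472 CPM in withdrawn mice. For 7 endothelial markers the sums were 3.18 to 767 and 39.3 to 627 CPM. The microglial markers P2ry12 and C1qa had at most 17 and 35 counts in any mouse.

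Promoter sequences were printed for the gene that the set is built on and for the 2 members with the highest expression per exon length, so that the start of each can be seen beside its level. RefSeq (GRCm38.p6) gave the 250 bases before its own start of 7 of the 10 members. That start differs from the one in GENCODE M21 for these members. For Nampt, Kmo and Haao the window lies wholly inside the gene as placed below. For Qprt, Nmnat2 and Aadat it lies partly inside, with 197, 108 and 192 of its bases in exons. Bases that GENCODE M21 places in an exon were left out, which leaves chr7:127122227-127122279 on the minus strand for Qprt, chr12:32820085-32820334 on the plus strand for Nampt and chr1:152954851-152954992 on the plus strand for Nmnat2. Capitals mark the GC box, GGGCGG on either strand.
Qprt: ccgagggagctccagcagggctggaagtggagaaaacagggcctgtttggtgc
Nampt: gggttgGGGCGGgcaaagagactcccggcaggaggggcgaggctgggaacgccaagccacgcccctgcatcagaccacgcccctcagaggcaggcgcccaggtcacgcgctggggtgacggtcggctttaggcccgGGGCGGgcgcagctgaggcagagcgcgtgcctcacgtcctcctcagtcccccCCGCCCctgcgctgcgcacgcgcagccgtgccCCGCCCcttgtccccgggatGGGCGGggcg
Nmnat2: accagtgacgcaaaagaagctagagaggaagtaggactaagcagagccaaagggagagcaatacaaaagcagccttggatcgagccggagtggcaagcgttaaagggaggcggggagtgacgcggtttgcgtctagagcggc
Nampt held 5 GC boxes and 27 CpG dinucleotides in its 250 bases. At least 27 CpG dinucleotides were found in 8.56% of the 32851 windows of that length in the table, and 32.7% held a GC box. The Qprt and Nmnat2 windows held no GC box, with 6 and 15 CpG dinucleotides. These counts are over all 250 bases, of which 53 and 142 are printed above. Of the other members with a window, Aadat held 1 GC box and Kyat3 held 3 matches to CCAAT, which 33.8% of windows carry. None of the 7 windows matched TATAAA (12.4% of windows), TGACGTCA (1.55%) or TGANTCA (6.75%), searched on both strands. A match is a description of letters and not of binding.

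Qprt (ENSMUSG00000030674, chr7:127107114-127122226, minus strand) was close to the floor in naïve mice and was counted in every withdrawn mouse. Its counts in naïve mice 1 to 6 were 1, 6, 0, 0, 0 and 0. In withdrawn mice 1 to 5 they were 337, 23, 220, 228 and 102. The withdrawn mice all lay above the naïve mice, and the lowest of them, mouse 2, stood well below the other 4. In bulk RNA, fewer cells of a type and less RNA per cell cannot be told apart. On the CPM scale Qprt was at 0.0728 ± 0.133 (SD, n = 6) in naïve and 14.5 ± 11.1 (SD, n = 5) in withdrawn mice. Summed over mice there were 7 counts against 910, a ratio of pooled rates of 168.8. Its 95% interval of 81.6 to 421 takes reads as independent, which reads from amplified cDNA are not. The interval also leaves out the spread between mice, so it is too narrow. The spread between withdrawn mice was 10.9-fold from the lowest to the highest, and mouse 4 held 38.7% of their summed CPM. The log2 fold change fitted by edgeR was 7.40 (SE 1.15), and it moved to 9.16 without naïve mouse 2, which carried 6 of the 7 naïve counts. Between the highest naïve mouse (0.329 CPM) and the lowest withdrawn mouse (2.57 CPM), the values nearest each other across the groups, the ratio was 7.81.

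Without the mice with conflicting labels Qprt was also higher, which follows from the groups not overlapping. The 2 withdrawn mice whose labels agree, mice 1 and 2, had 24.3 and 2.57 CPM, and the log2 fold change without the other 3 was 7.29 (SE 1.53). Without naïve mouse 5 and withdrawn mice 2 and 4, the 3 libraries that stand apart, it was 7.10 (SE 1.06).

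The genes of the steps that make quinolinic acid had few counts in both groups. Kmo (ENSMUSG00000039783, chr1:175620381-175662116, plus strand) encodes kynurenine 3-monooxygenase, which commits kynurenine to this branch. Its counts were 0, 15, 40, 15, 0 and 3 in naïve and 0, 13, 5, 25 and 3 in withdrawn mice. The groups overlapped across their whole range, and the log2 fold change of 0.06 (SE 1.40, edgeR adjusted p = 0.995) changed sign with the setting used. Kynu (ENSMUSG00000026866, chr2:43555329-43682715, plus strand), the kynureninase gene, had 26 counts over the naïve and 12 over the withdrawn mice. Haao (ENSMUSG00000000673, chr17:83831156-83847963, minus strand), whose dioxygenase makes the direct precursor of quinolinic acid, had 10 and 7. Neither passed the filter on low counts, and a difference in them was not detectable at this depth. Withdrawn mouse 4, with the highest Qprt level (28.0 CPM), had 25 counts of Kmo, 7 of Kynu and 0 of Haao, the highest Kmo and Kynu levels of its group. Withdrawn mouse 1, the next in Qprt (24.3 CPM), had 0 counts of Kmo, 4 of Kynu and 0 of Haao. Acmsd, the decarboxylase that diverts the precursor away from quinolinic acid, had at most 18 counts in any mouse and also stayed below the filter.

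**Figure D1:**
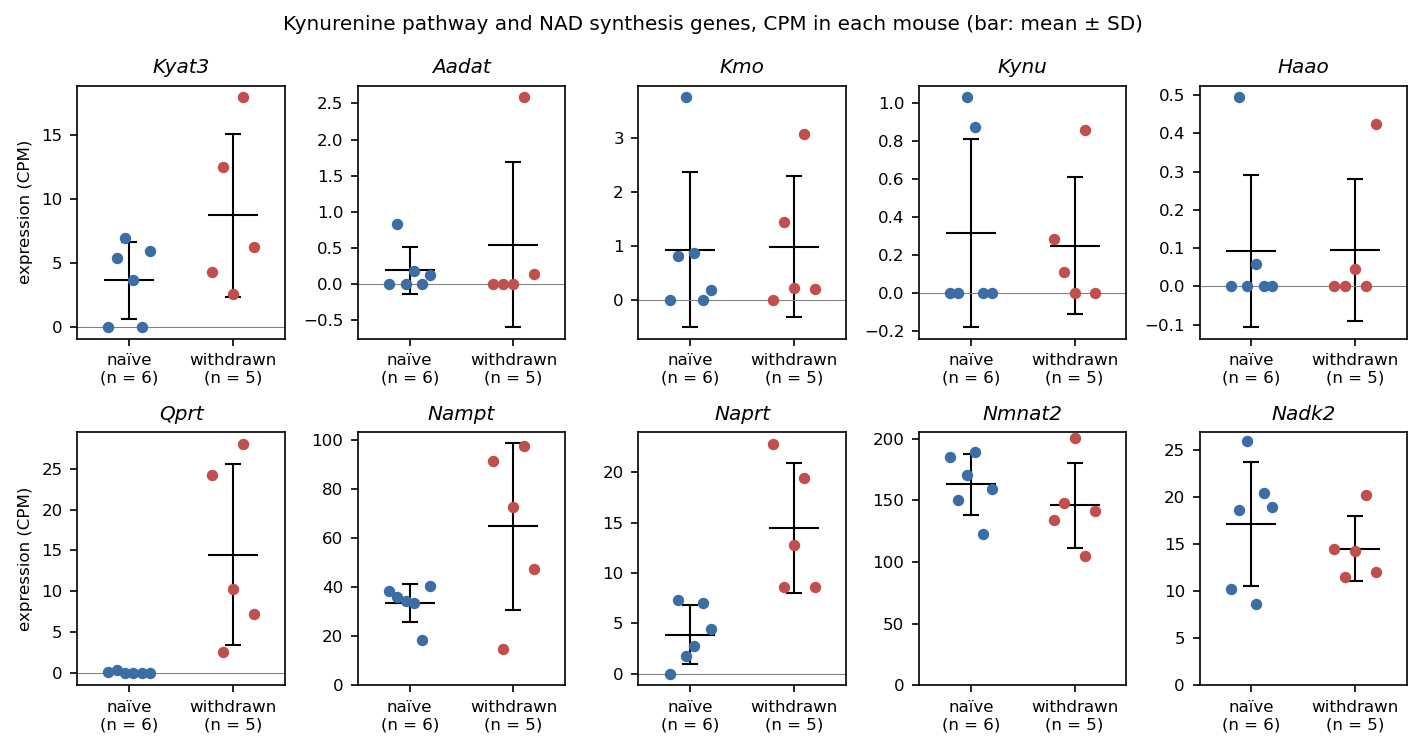
Expression of the 10 genes in CPM (vertical axes, linear, a scale for each gene) in 6 naïve (blue) and 5 withdrawn (red) mice, with 1 point per mouse and the mean ± SD in black. Qprt lies at or below 0.329 CPM in naïve mice and between 2.57 and 28.0 CPM in withdrawn mice, and Naprt is the only other member whose groups do not overlap.

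Of the genes whose enzymes turn kynurenine into kynurenic acid, Kyat3 and Aadat had few counts and Got2 had many. Kyat3 (ENSMUSG00000040213, chr3:142701051-142746870, plus strand) encodes a kynurenine aminotransferase, and its exons share 264 bases with Gm15540 on the opposite strand. It had 0, 98, 74, 63, 0 and 96 counts in naïve mice and 60, 112, 56, 146 and 88 in withdrawn mice. It was undetected in 2 naïve mice and seen in every withdrawn mouse, but 3 of the 5 withdrawn mice lay within the naïve range. Kyat3 averaged 3.65 ± 3.02 CPM in naïve mice (SD, n = 6) and 8.73 ± 6.38 CPM in withdrawn mice (SD, n = 5), for a log2 fold change of 1.25 (SE 1.09, edgeR adjusted p = 0.878). The log2 fold change was 0.0045 without the 3 libraries that stand apart. Aadat (ENSMUSG00000057228, chr8:60505932-60545677, plus strand), another kynurenine aminotransferase gene, had 20 counts over the naïve and 23 over the withdrawn mice, 21 of them in mouse 4, and stayed below the filter. The aminotransferase gene Got2, which also serves the malate-aspartate shuttle, was at 183.6 ± 30.6 and 172.8 ± 36.6 CPM.

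Nampt (ENSMUSG00000020572, chr12:32819545-32853349, plus strand) encodes the rate-limiting enzyme of nicotinamide salvage. Its CPM in naïve mice were 38.3, 36.0, 34.1, 33.4, 18.3 and 40.4. In withdrawn mice they were 91.3, 14.8, 72.6, 97.7 and 47.5. Withdrawn mouse 2 was the lowest of all 11 mice, while the other 4 withdrawn mice lay above every naïve mouse. The means were 33.4 ± 7.87 (SD, n = 6) and 64.8 ± 34.1 CPM (SD, n = 5). The log2 fold change was 0.95 (SE 0.38, unadjusted p = 0.0250), which did not pass the adjustment over 17093 genes in edgeR (adjusted p = 0.569). Nampt was called only without withdrawn mouse 2, at a log2 fold change of 1.19 (SE 0.25, adjusted p = 0.0407). Its adjusted p ranged up to 0.997 over the settings used, and it was 0.859 without the mice with conflicting labels and 0.0883 without the 3 libraries that stand apart.

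Naprt (ENSMUSG00000022574, chr15:75890956-75894481, minus strand) opens the Preiss-Handler route from nicotinic acid to NAD, and 277 of its 2344 exonic bases are shared with Eef1d on the same strand. It had 0.00, 7.36, 1.78, 2.74, 6.98 and 4.38 CPM in naïve mice. Withdrawn mice had 22.8, 8.62, 12.8, 19.4 and 8.56 CPM. The groups did not overlap, withdrawn mice being higher, although the gap between 7.36 and 8.56 CPM was small beside the spread within either group. Over all tested genes, 118 were separated in this direction (0.690%) and 44 in the other (0.257%), where no member was found. The means of Naprt were 3.87 ± 2.92 (SD, n = 6) and 14.4 ± 6.45 CPM (SD, n = 5). Its log2 fold change of 1.89 (SE 0.80, unadjusted p = 0.0326) did not pass the adjustment in edgeR (adjusted p = 0.628), nor in any other setting, where adjusted p was at least 0.203.

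The genes of the late steps were expressed in every mouse, with group means close to each other. Nmnat2 (ENSMUSG00000042751, chr1:152954993-153119261, plus strand) encodes a neuronal enzyme that makes NAD from its mononucleotide and keeps axons intact. It averaged 163.0 ± 24.7 CPM in naïve mice (SD, n = 6) and 145.9 ± 34.6 CPM in withdrawn mice (SD, n = 5). Its log2 fold change was -0.16 (SE 0.18, edgeR adjusted p = 0.912). Nadk2 (ENSMUSG00000022253, chr15:9071260-9110891, plus strand), the mitochondrial NAD kinase gene, was at 17.1 ± 6.55 and 14.5 ± 3.43 CPM, with a log2 fold change of -0.24 (SE 0.36, edgeR adjusted p = 0.944). For both genes the withdrawn and naïve ranges overlapped.

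Of the 10 members, 7 passed the filter on low counts, which a gene could pass through the group in which it is high. Besides Qprt, 0 of the remaining 6 passed the thresholds in edgeR (adjusted p up to 0.05, absolute log2 fold change over 0.6), where 1 of 17093 genes did (0.00585%), Ptgdr, a prostaglandin receptor gene. The DESeq2 Wald test called 362 of 21849 genes (1.66%) and also 0 of these 6, with adjusted p between 0.203 and 0.985. At an unadjusted p under 0.05 in edgeR there were 2 of 6, Nampt and Naprt, against 7.22% of all tested genes. Both were higher in withdrawn mice, as were 5.00% of all genes at that p, while 2.22% were lower. By sign alone 4 of 6 were higher against 51.8% of all genes, with a median log2 fold change of 0.51 against 0.02 over all genes.

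Per kilobase of exon, the order of levels in naïve mice was Nmnat2 (28.2 CPM per kb), Nampt (6.62), Nadk2 (3.34), Naprt (1.65), Kyat3 (0.384), Kmo (0.199), Aadat (0.0858), Kynu (0.0516), Qprt (0.0275) and Haao (0.0197). Among neighbours in that order, only the ranges of Nmnat2 and Nampt stood apart. In withdrawn mice Qprt had rank 4 at 5.47 ± 4.19 CPM per kb (SD, n = 5), between Naprt (6.16) and Nadk2 (2.83), and its range overlapped with both. Nmnat2 (25.2) and Nampt (12.8) remained the highest there, and the only neighbours whose ranges stood apart were Nadk2 and Kyat3 (0.917).

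**Figure D2:**
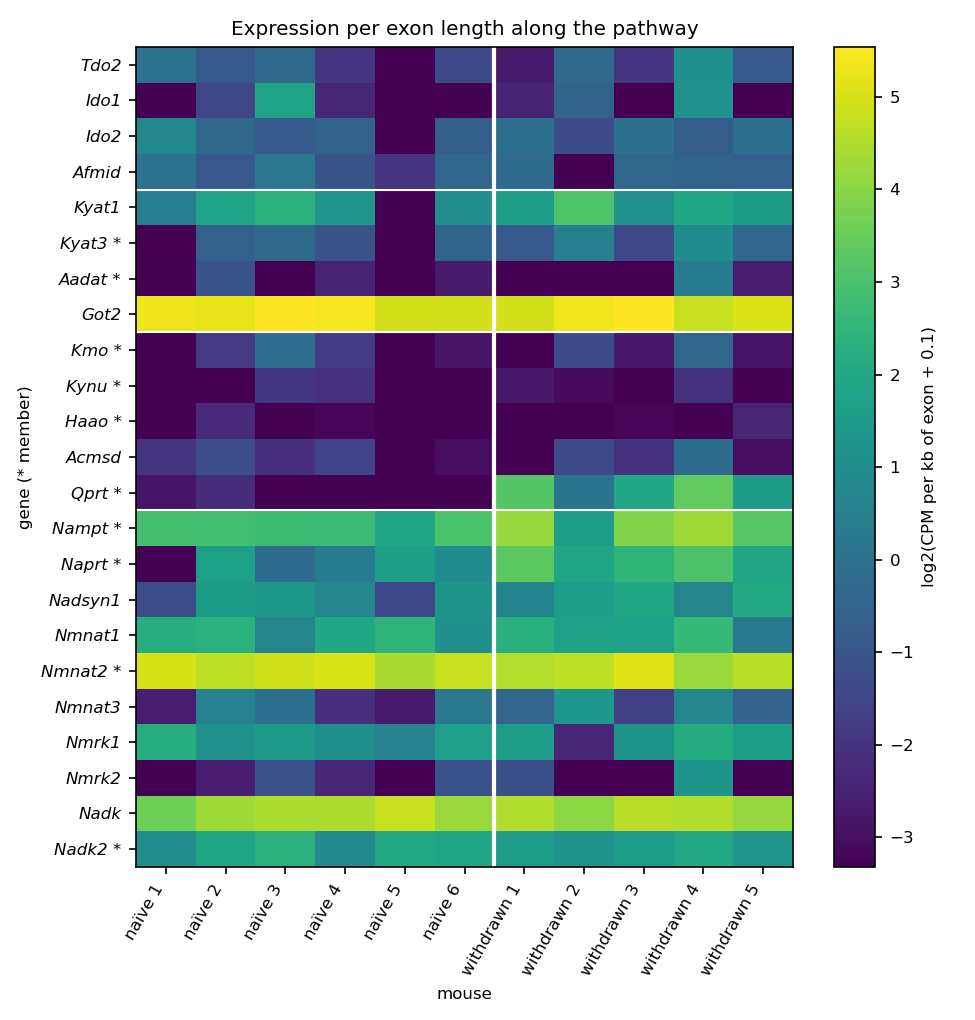
Expression per exon length, as log2(CPM per kb + 0.1) (color), of 23 genes along the pathway (rows, members marked with an asterisk) in each of the 11 mice (columns), with white lines between the steps from tryptophan to kynurenine, the kynurenic acid branch, the quinolinic acid branch and NAD synthesis. Kmo, Kynu, Haao and Acmsd stay dark in most mice of both groups while Qprt is brighter in the withdrawn mice.

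The wider pathway was read from 48 genes in 8 lists. Without Qprt, 39 of 47 passed the filter, with 18 higher and 21 lower in the withdrawn group and a median log2 fold change of -0.01, and edgeR called 0. At an unadjusted p under 0.05 there were 5 higher (Nampt, Naprt, Gpr35, Parp3 and Aox1) and 1 lower, Sirt4 (log2 fold change -1.05, SE 0.39, edgeR adjusted p = 0.495), a mitochondrial sirtuin named here after its values were seen. Over all tested genes 5.00% were higher and 2.22% lower at that p. Upstream of kynurenine, Tdo2, Ido2 and Afmid passed the filter with log2 fold changes of 0.71, 0.08 and -0.17, and Ido1 did not pass. Among transporters and receptors, the kynurenic acid receptor gene Gpr35 had the largest value at 2.24 (SE 1.00, edgeR adjusted p = 0.671), and the kynurenine-sensing receptor gene Ahr was at -0.45 (SE 0.41).

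DESeq2 gave no adjusted p for Kynu, Haao and Aadat. Of the 47 pathway genes besides Qprt it called 1, beside 1.66% of all genes it tested. This was Aox1, whose aldehyde oxidase acts on methylated nicotinamide. Its counts were 12, 18, 27, 41, 0 and 10 in naïve mice and 264, 52, 155, 158 and 49 in withdrawn mice. On the CPM scale the groups did not overlap, and withdrawn mouse 5 was the closest to the naïve mice. The log2 fold change was 3.14 (SE 0.76, adjusted p = 0.00500) in DESeq2 and 3.07 (SE 0.89, adjusted p = 0.298) in edgeR, so the call depends on the test. Nnmt, which methylates nicotinamide, was at 0.72 (SE 0.68, edgeR adjusted p = 0.892). Of 12 enzymes that cleave NAD and passed the filter, 3 were higher and 9 lower, with Parp3, a DNA-damage ADP-ribosyltransferase, at 2.34 (SE 0.94, edgeR adjusted p = 0.581) and Cd38 at -1.18 (SE 1.42, edgeR adjusted p = 0.923). The other genes named by rule, Kyat1 (0.76), Nadsyn1 (0.79), Nmnat3 (0.87), Tph1 (0.79) and Maoa (-0.12), had edgeR adjusted p of at least 0.868.

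**Figure D3:**
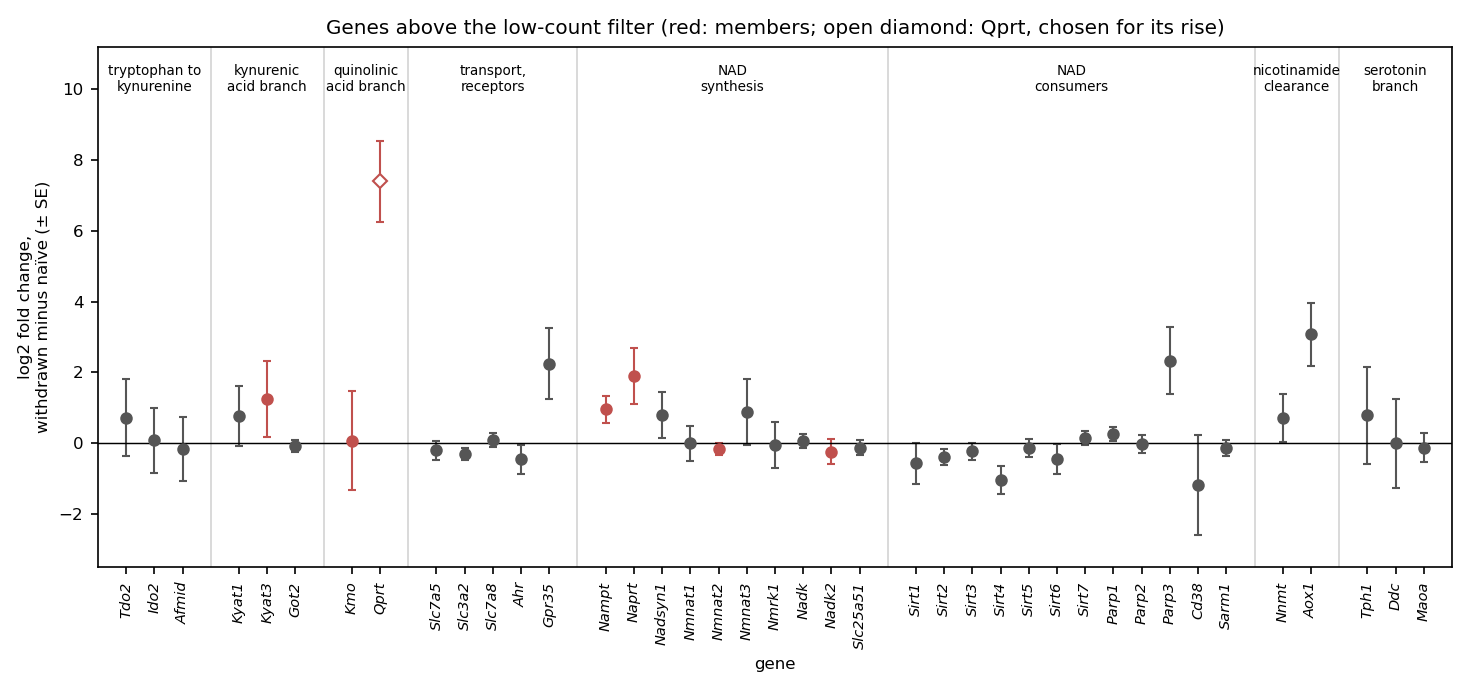
Log2 fold changes of withdrawn minus naïve mice from edgeR (vertical axis, ± SE) for the 40 pathway genes above the filter on low counts, grouped by role, with members in red. Qprt (open diamond, shown as a description since it was chosen for its rise) lies at 7.40, and the highest of the others is Aox1 at 3.07.

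The summed markers of fibroblasts, astrocytes and microglia were each higher in 4 of the 5 withdrawn mice than in any naïve mouse. The sum over 10 fibroblast markers was 9.14 to 82.7 CPM in naïve mice, and 1566, 18.4, 872, 1230 and 304 CPM in withdrawn mice 1 to 5. Withdrawn mouse 2 thus lay within the naïve range, as it did for the 8 astrocyte markers (208 CPM, with naïve mice reaching 425 CPM), for which the other 4 withdrawn mice had 456 to 918 CPM. Of the fibroblast markers 8 passed the filter and all 8 were higher, with 7 at an unadjusted p under 0.05, 0 called by edgeR and 4 by DESeq2. Lum and Igf2, below the filter, had lower means in withdrawn mice (0.910 and 0.0916 CPM) than in naïve mice (1.36 and 0.468 CPM). Of the astrocyte markers 7 passed the filter, 3 higher and 4 lower, and of the microglial markers 5 passed, 3 higher and 2 lower. The sum over 10 microglial markers was 15.3 to 26.3 CPM in naïve and 12.5 to 46.6 CPM in withdrawn mice.

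Of the withdrawn mice, mouse 2 was the lowest in Qprt and Nampt, and mouse 5 was the lowest in Naprt and Aox1. Mouse 2, with its fibroblast sum of 18.4 CPM, had 23 counts of Qprt (2.57 CPM), 7.81 times the highest naïve mouse. Among the other 4 withdrawn mice, Qprt, Nampt and Naprt were highest in mice 1 and 4, which also had the highest fibroblast sums. The part of fibroblast, astrocyte or microglial RNA in the values of Qprt, Nampt, Naprt and Aox1 was not tested.

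**Figure D4:**
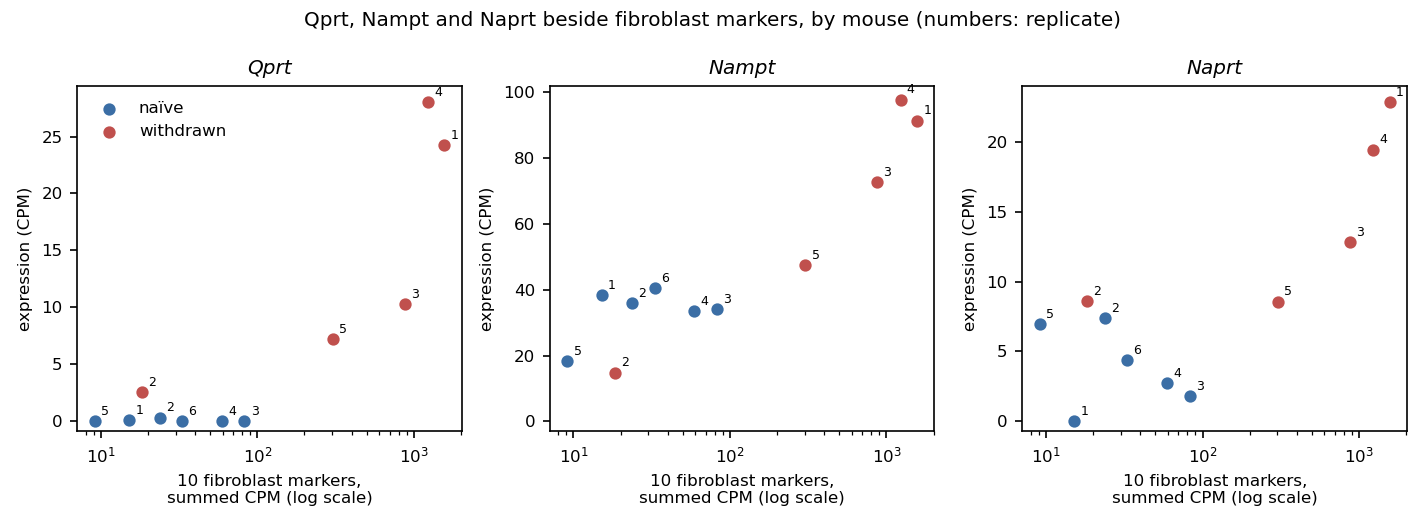
CPM of Qprt, Nampt and Naprt (vertical axes) against the summed CPM of 10 fibroblast markers (horizontal axis, log scale) in naïve (blue) and withdrawn (red) mice, with the replicate number beside each point. Withdrawn mouse 2, at 18.4 CPM of fibroblast markers, lies among the naïve mice on the horizontal axis with 2.57 CPM of Qprt.

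The genes most like Qprt over the 11 mice, by Pearson correlation of log2 CPM, were Calml4 (r = 0.990), Serpinb6b (0.984), Loxl1 (0.977), Ptgdr (0.970) and Ppp1r3b (0.968). These correlations are a description that carries the group difference on which Qprt was chosen, and all 5 genes were near 0 in naïve mice, with a mean of at most 0.125 CPM. In withdrawn mouse 2 they were at 0.784 to 2.01 CPM, below each gene's level in the other withdrawn mice. When each mouse was expressed as its deviation from the group mean, Cacng5 (r = 0.944), Ccdc9b (0.931), Taf15 (0.919), Gm38190 (0.919) and Gm26909 (0.917) came first, and none of these was among the first 5 before. Over the 11 mice Nampt had r = 0.655 and Naprt r = 0.650 with Qprt, at ranks 811 and 838 of the tested genes. On deviations from the group means, r was 0.821 for Nampt (rank 108) and 0.178 for Naprt (rank 7191).

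**Figure D5:**
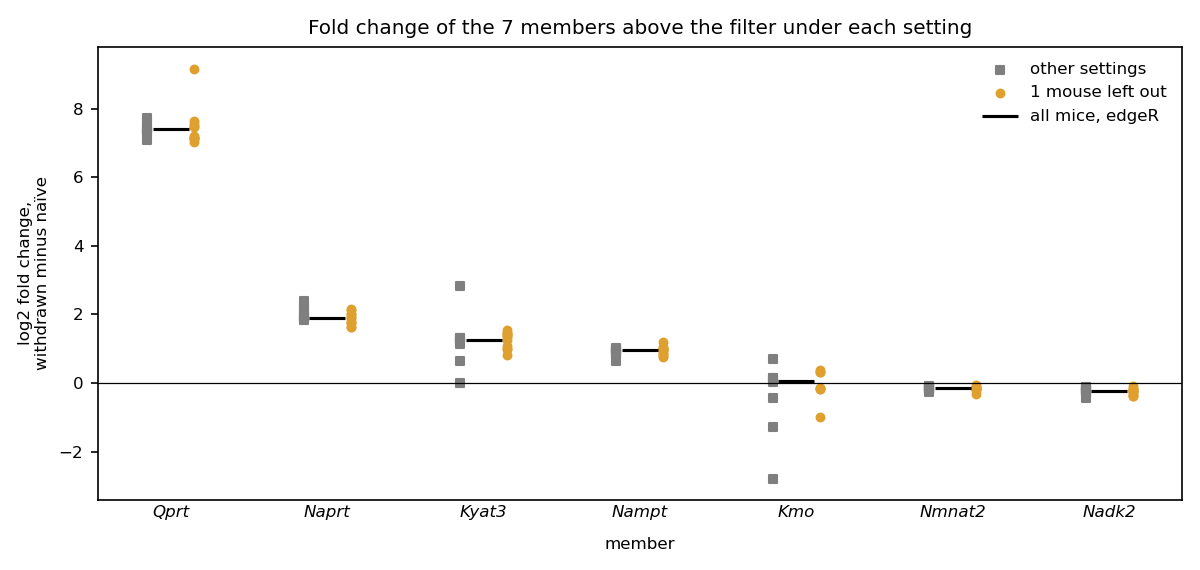
Log2 fold change of withdrawn minus naïve mice (vertical axis) for the 7 members above the filter, from all mice in edgeR (black bar), with 1 mouse left out (orange) and under the other settings (grey). Qprt stays between 7.02 and 9.16 and Nampt between 0.64 and 1.19, while Kmo takes both signs.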

How the data were processed

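RNA of sorted mPFC CRF1+ neurons was measured in 6 naïve and 5 withdrawn mice. The authors amplified cDNA from 160 pg of RNA per mouse (14 PCR cycles, then 12 for the library), sequenced single reads of 75 nt, and used cutadapt for trimming, STAR for mapping to GRCm38 and HTSeq for counting. The deposited values are these raw counts per Ensembl gene, without normalization. Whether HTSeq used strand is not given in the sources used here, so reads where genes overlap may be missing or shared. Symbols, exon lengths and positions were taken from GENCODE M21 (GRCm38), which named 53360 of 53465 identifiers.

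Withdrawn and naïve mice were compared by the quasi-likelihood test of edgeR 4.0.16 (R 4.3.3) after TMM scaling and removal of low genes by filterByExpr, whose minimum was 10 for the count and 15 for the total count, with Benjamini-Hochberg adjustment over all 17093 tested genes. Calls required an adjusted p up to 0.05 together with an absolute log2 fold change over 0.6, and a standard error is the log2 fold change divided by the square root of F. CPM use TMM library sizes, and log2 CPM a prior count of 2. DESeq2 1.42.0 (its adjusted p was NA for Kynu, Haao and Aadat), limma 3.58.1 voom, other normalizations and filters, a replicate block and each mouse left out were alternatives. Leaving out the 3 libraries that stand apart was added after seeing the data. The scripts were tested on simulated data. Depth was 7351567 to 22244869 counts per mouse, and no pair of libraries agreed within sampling noise (chi-square per degree of freedom at least 25.6 over 55 pairs).

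The members and lists were chosen with earlier results of these data known. Named genes are the members, pathway genes called or with groups that do not overlap, the 2 non-members with the largest change in each list, and the 5 genes most like Qprt by each measure.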

Additional observations from a re-analysis of the deposited data

Results flagged for a closer look

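In each group the values of 24 genes, the members and the named pathway genes, were checked for a mouse that lies far from the rest of its group on the log2 CPM scale (a gap to the nearest mouse larger than Dixon's 95% limit for that number of mice). This flagged 7 of 48 sets, where chance gives about 2.4, or 1 in 20.

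The flags of Haao and Aadat rest on a few counts in 1 mouse each time. Haao was at -0.65 in naïve mouse 2 (9 counts) with the others at or below -2.31, and at -0.81 in withdrawn mouse 5 (6 counts) with the others at or below -2.39. Aadat was at 1.45 in withdrawn mouse 4 (21 counts) with the others at or below -1.81.

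Others were flagged for a low value. Nampt was at 4.20 in naïve mouse 5 (270 counts), below the 5.07 to 5.34 of the other naïve mice. This is the library with the fewest genes detected, and in it Kyat1 was also at 0 counts (-2.80, against 1.96 to 3.91). Naprt had 0 counts in naïve mouse 1 (-2.80, against 0.94 to 2.91), and Afmid had 0 counts in withdrawn mouse 2 (-2.80, against 1.13 to 1.49).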

How the results depend on the processing

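Qprt was chosen for its rise and its groups did not overlap, so leaving out mice could not change its sign. As a description, it was higher in withdrawn mice in every setting with a value. The log2 fold change of Qprt was 7.10 to 7.72 over the other tests, normalizations, filters and sets of mice. With 1 mouse left out it was 7.02 to 9.16, the highest without naïve mouse 2. It had no value where at least 10 counts in every mouse were required. The number of genes called was 1 in edgeR, 362 in DESeq2, 137 with no filter, 30 with at least 10 counts in every mouse, 0 without the 3 mice with conflicting labels, 168 without the 3 libraries that stand apart, and 0 to 193 with 1 mouse left out, the highest without withdrawn mouse 2. Members called besides Qprt numbered 0 to 1 with 1 mouse left out, the 1 being Nampt without withdrawn mouse 2, and pathway genes called numbered 1 in DESeq2 (Aox1) and 0 to 1 with 1 mouse left out (the same Nampt call). The log2 fold change of Kmo was -1.29 with voom, -0.44 without the mice with conflicting labels, -2.80 without the libraries that stand apart, and -0.98 to 0.37 with 1 mouse left out, and the cause was not tested. Nmnat2 and Nadk2 were lower and Naprt, Nampt and Kyat3 higher in all settings with a value.

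Naïve and withdrawn mice share replicate numbers but are different animals. Deviations of same-numbered mice correlated at -0.01, -0.06, -0.20, 0.04 and 0.18, and only mouse 5 correlated best with its own number. Whether same-numbered samples were processed together was not tested. With the replicate block 0 genes were called and Qprt was at 7.72. Low counts limit what can be seen for Kynu, Haao, Aadat and Kmo.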
